A study of Mus musculus with 77 samples.

Results

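The genes described here are the integrin subunits, the laminin and collagen IV chains, the nidogens and the Adamts metalloproteinases of mouse pancreatic ductal organoids. They were chosen by symbol from the gene table, as Itga and Itgb followed by a number or a single subunit letter, Lama, Lamb and Lamc followed by a number, Col4a1 to Col4a6, Nid1, Nid2 and Adamts followed by a number. This gave 66 of the 46078 genes in the table, made up of 18 integrin alpha and 10 integrin beta symbols, 11 laminin chains, 6 collagen IV chains, 2 nidogens and 19 Adamts genes. The 9 symbols left out were Itgb1bp1, Itgb1bp2, Itgb3bp, Col4a3bp and Adamtsl1 to Adamtsl5, which begin alike but are not chains, subunits or proteases of these families. Itgbl1 has an integrin-like symbol but codes for an integrin-like protein and not for a receptor subunit, and is counted among the beta symbols by its letter. Adamts2 was named in the choice for its rise with Ngn3, so its values are given as a description, and it is included in every count of calls below.

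The study asked how the phosphorylation of neurogenin 3 (Ngn3, gene Neurog3), the basic helix-loop-helix factor that starts endocrine differentiation in the pancreas, alters its transcriptional program. Ductal organoids, grown in Matrigel from adult C57BL/6 mice, carried doxycycline-inducible lentiviral GFP fused through a 2A peptide to WT Ngn3 or to 6S-A Ngn3, in which 6 serine-proline sites are changed to alanine-proline. Pools of 50 sorted cells were sequenced. At 2 days of induction the groups were GFP only, WT Ngn3 and 6S-A Ngn3, each with 3 biological replicates of 6 pools, all GFP+ cells of passage 2. At 8 days they were WT Ngn3 and 6S-A Ngn3, and for each of them a control labelled Control_WT or Control_6SA and headed No_Color, called no-color here, with 3 replicates each. Replicates 1, 2 and 3 at 8 days held 3, 2 and 1 pools, except that WT Ngn3 held 2, 2 and 1, of which 2, 1 and 1 were kept. The labels say no more of what the no-color cells were, and the labels name no GFP-only group at 8 days. A legend of the study calls the control GFP only at both times, so whether the controls differ in kind cannot be told from these sources. Replicates 1 and 2 at 8 days were of passage 2, and replicate 3, a single pool in each group, was of passage 5. Pools of 1 replicate are labelled technical repeats, so they were summed and n = 3 throughout. The p-values measure the spread between these replicates, and fewer cells of a type cannot be told apart from less RNA per cell.

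Of the 77 pools analysed, 76 passed limits on depth and spike-in share set after the study's methods. A 2-day replicate held 17757303 to 26627347 gene reads and an 8-day replicate 2397470 to 17919627, the lowest being replicate 3 of the no-color WT group. Neurog3 stood at 0.0732, 0.0385 and 0.0463 CPM (gene reads per 1000000 reads of the library after scaling) in GFP-only replicates 1, 2 and 3, at 206, 89.6 and 105 with WT Ngn3 and at 198, 117 and 101 with 6S-A Ngn3 at 2 days. At 8 days it was 6.86, 46.1 and 14.2 in WT Ngn3 and 9.85, 12.8 and 15.4 in 6S-A Ngn3 cells, against at most 0.989 in a no-color replicate, so each Ngn3 replicate stood above every control. The vector and endogenous transcripts were not separated in this count. Summed CPM of 6 ductal markers was 4066 to 4495 in GFP-only, 3123 to 3198 in WT Ngn3 and 2679 to 2936 in 6S-A Ngn3 replicates at 2 days, and 1791 to 4457 over the 8-day replicates, so ductal transcripts were abundant in every group.

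Integrins are alpha-beta receptor pairs that hold epithelial cells to the basement membrane and signal from it. That membrane is a sheet in which laminin trimers, each of an alpha, a beta and a gamma chain, and a collagen IV network are linked by nidogens. The Adamts proteases are secreted enzymes that trim procollagens, cut proteoglycans or digest other matrix proteins, and in the developing pancreas endocrine progenitors detach from the ductal epithelium as Ngn3 comes on. Matrigel itself supplies laminin, collagen IV and nidogen protein to organoids, whereas the values below are RNA only.

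In the 2-day comparisons, 61 of the 66 genes had enough reads to be tested. With WT Ngn3, 21 of the 61 changed against GFP only, 13 higher and 8 lower (edgeR's quasi-likelihood test, adjusted p under 0.05 by the Benjamini-Hochberg method), where 11.8% of all 23844 genes tested were called, 6.56% higher and 5.23% lower. With 6S-A Ngn3, 25 of the 61 changed, 13 higher and 12 lower, where 18.1% of all genes were called, 9.43% higher and 8.62% lower. Both counts include Adamts2, which was named in the choice for its rise. The comparisons share the GFP-only replicates. The median log2 fold change of the 61 genes was 0.03 in WT Ngn3 and 0.30 in 6S-A Ngn3 cells, beside 0.01 and 0.02 over all genes tested. By family, 6 of the 17 Adamts genes tested were higher and 1 lower with either protein (median 1.51 with WT and 1.47 with 6S-A Ngn3), whereas of 25 integrin symbols 4 were higher and 4 lower with WT Ngn3, and 4 higher and 7 lower with 6S-A Ngn3 (medians -0.20 and 0.02). Of the 11 laminin chains, 3 were higher and 3 lower with either protein (median -0.11 with both), and of the 8 collagen IV chains and nidogens 1 changed, lower with 6S-A Ngn3 (medians -0.24 and 0.01). The untested genes were Itga8, Itgax, Itgbl1, Adamts12 and Adamts19, detected in too few pools. The library chemistry did not keep strand and exons of 21 of the 66 genes overlap another annotated gene, so reads from the opposite strand cannot be told apart there.

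**Figure D1:**
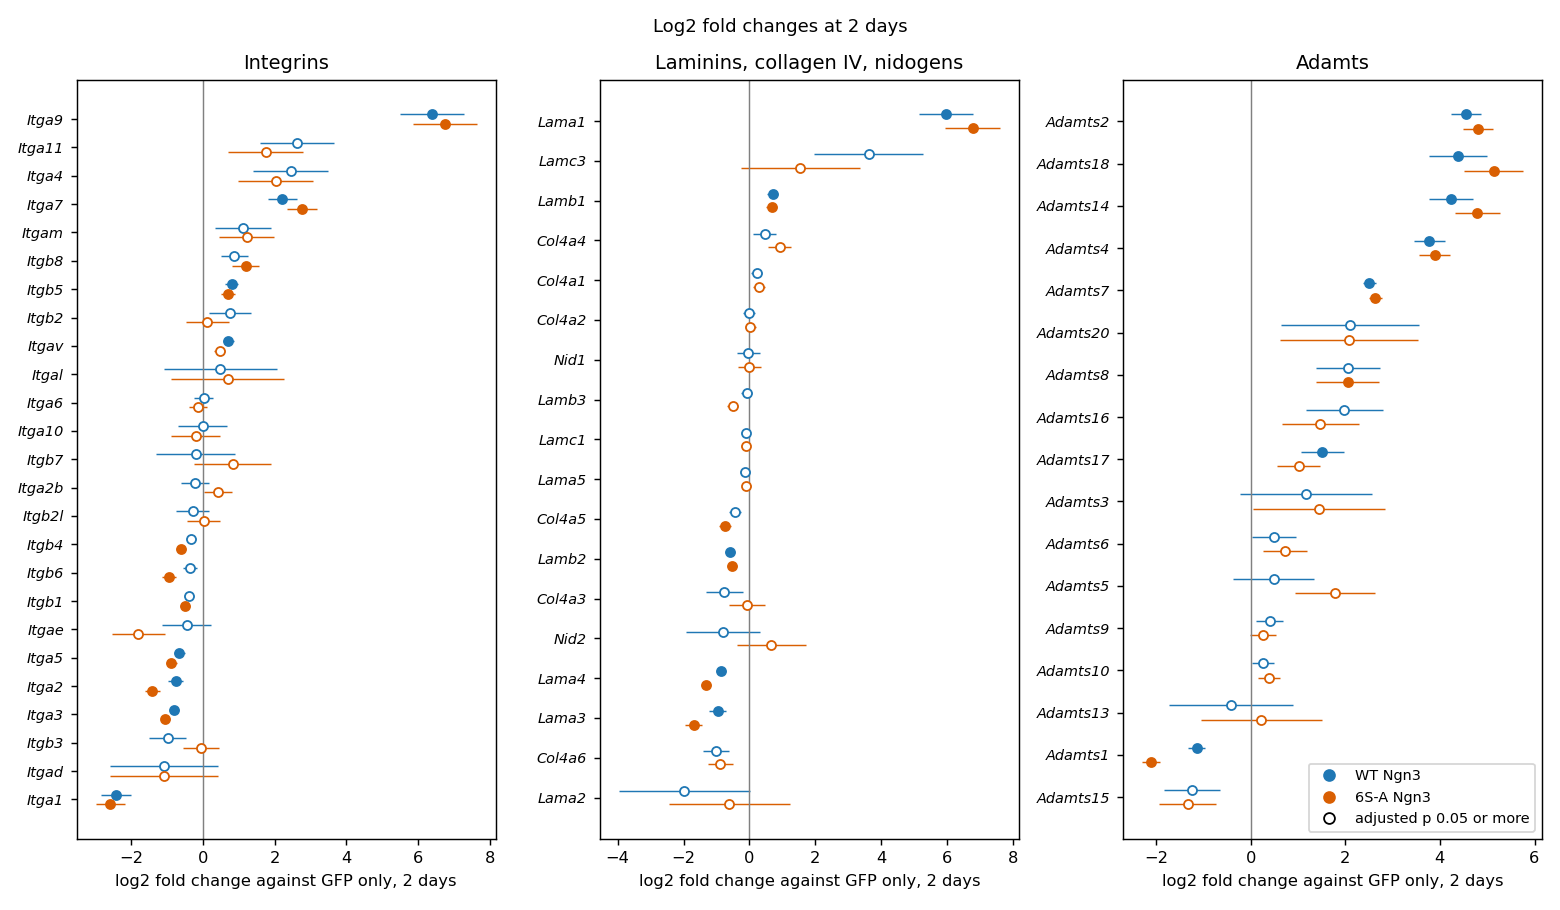
Log2 fold change against GFP only at 2 days (x axis) for the tested genes reported here (y axis), blue for WT Ngn3 and orange for 6S-A Ngn3, with bars of 1 standard error from edgeR and filled points for adjusted p under 0.05. The filled points furthest to the right belong to Itga9, Lama1 and the Adamts genes, and those furthest to the left to Itga1 and, with 6S-A Ngn3, Adamts1.

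The 250 bases before the start are shown for Adamts14 and Lamb1, which were past the threshold against the control at both times with both proteins, and for Adamts2, which the choice of genes named (RefSeq, GRCm38.p6). The positions are chr11:50601835-50602084 on the plus strand for Adamts2, chr10:61273420-61273669 on the minus strand for Adamts14 and chr12:31265043-31265292 on the plus strand for Lamb1. Capitals mark CANNTG, the E-box letters that basic helix-loop-helix factors as a class can bind, which reads alike on both strands.
Adamts2: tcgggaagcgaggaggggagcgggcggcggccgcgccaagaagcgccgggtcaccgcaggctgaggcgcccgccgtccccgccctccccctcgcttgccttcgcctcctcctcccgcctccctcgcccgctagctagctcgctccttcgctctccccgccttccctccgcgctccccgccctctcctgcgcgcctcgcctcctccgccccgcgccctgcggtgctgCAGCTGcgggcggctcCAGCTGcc
Adamts14: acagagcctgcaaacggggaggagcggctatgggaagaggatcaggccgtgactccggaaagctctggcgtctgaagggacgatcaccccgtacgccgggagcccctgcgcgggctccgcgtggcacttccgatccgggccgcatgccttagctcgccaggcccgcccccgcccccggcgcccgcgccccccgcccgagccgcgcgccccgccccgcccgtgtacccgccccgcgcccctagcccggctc
Lamb1: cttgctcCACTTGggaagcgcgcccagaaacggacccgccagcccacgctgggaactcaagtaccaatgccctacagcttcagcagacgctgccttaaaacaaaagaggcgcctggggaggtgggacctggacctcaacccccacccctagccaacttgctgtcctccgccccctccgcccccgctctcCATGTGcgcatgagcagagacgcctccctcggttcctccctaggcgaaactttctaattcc
The Adamts2 stretch holds 2 matches, both CAGCTG, that of Lamb1 holds 2 others, and that of Adamts14 holds 0. Of the 66 genes, 41 had a promoter in the table, with 44 starts in all. CANNTG stood in 70.5% of these 44 and in 66.2% of all 32851 promoters of that length. Of the forms that CANNTG includes, CAGATG (read on both strands) stood in 15.9% against 14.4%, and CAGCTG in 25.0% against 13.0%. A match is only a description of the letters, and the absence of one says only that they are not in this window.

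The procollagen N-proteinases Adamts2 and Adamts14, which remove the amino-terminal propeptide of fibrillar procollagens, were both higher at 2 days. Adamts2 (chromosome 11, 50602084 to 50807573, plus strand, mm10) measured 1.68, 1.66 and 4.12 CPM in the 3 GFP-only replicates, 61.5, 63.6 and 46 in WT Ngn3 and 74.4, 59.7 and 70.7 in 6S-A Ngn3 cells. The Ngn3 replicates were all far above the controls, with means of 2.49 ± 1.41, 57 ± 9.60 and 68.3 ± 7.64 CPM (SD, n = 3). The log2 fold change was 4.55 (SE 0.31) with WT and 4.80 (SE 0.31) with 6S-A Ngn3. Single pools, labelled technical repeats, held 0.209 to 7.96 CPM in the 18 GFP-only pools, 25.3 to 95.3 CPM with WT Ngn3 and 25 to 113 CPM with 6S-A Ngn3. Since Adamts2 was named in the choice for its rise, these values describe it and are no test. Adamts14 (chromosome 10, 61197112 to 61273438, minus strand) measured 0.659, 1.31 and 2.36 CPM with GFP only, 29.1, 37.6 and 13.3 in WT Ngn3 and 46.4, 37.4 and 34.3 in 6S-A Ngn3 cells. No Ngn3 replicate overlapped the controls, and it rose by 4.24 (SE 0.47, adjusted p = 0.000166) in WT Ngn3 and 4.79 (SE 0.48, adjusted p = 4.06e-05) in 6S-A Ngn3 cells on the log2 scale. Adamts3, the other procollagen N-proteinase, was not called with either protein, with log2 fold changes of 1.17 and 1.44. Summed per kilobase of exon, the 3 N-proteinases went from 0.321, 0.437 and 0.904 CPM per kb in the GFP-only replicates to 12.2, 14 and 7.48 in WT Ngn3 and 16.9, 13.6 and 14.2 in 6S-A Ngn3 cells. Adamts2 made up 47.0% to 65.9% of this sum in the Ngn3 replicates.

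Adamts4, an aggrecanase that cuts proteoglycan cores, measured 2.60, 3.39 and 3.66 CPM in the GFP-only replicates, 58, 44.1 and 29.3 in WT Ngn3 and 69.7, 36.2 and 36.6 in 6S-A Ngn3 cells. All Ngn3 values lay above all controls, and the log2 rise was 3.78 (SE 0.33, adjusted p = 1.79e-05) and 3.89 (SE 0.33, adjusted p = 7.86e-06). Adamts7, a protease that cuts cartilage oligomeric matrix protein (chromosome 9, 90163069 to 90208071, plus strand), measured 42.1, 45.5 and 46.9 CPM with GFP only, 273, 275 and 212 in WT Ngn3 and 305, 285 and 245 in 6S-A Ngn3 cells. Averaged over the 7 groups it had the highest level per length of the family, and it went from 7.14 CPM per kb in the mean of GFP only to 40.3 with WT and 44.3 with 6S-A Ngn3. Every Ngn3 replicate was above every control, and the log2 fold change was 2.51 (SE 0.14, adjusted p = 9.96e-08) and 2.63 (SE 0.14, adjusted p = 3.83e-08). Exons of Adamts4 overlap another gene and those of Adamts7 overlap Tbc1d2b on the opposite strand. Adamts18 measured 0.146, 1.16 and 0.509 CPM with GFP only, 11.8, 18.5 and 7.59 in WT Ngn3 and 16.5, 34.4 and 13.5 in 6S-A Ngn3 cells, without overlap between controls and Ngn3 replicates. Its log2 rise was 4.39 (SE 0.62, adjusted p = 0.000775) and 5.14 (SE 0.63, adjusted p = 0.000175).

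Adamts1, a protease of versican and aggrecan, went the other way. It stood at 39, 67.7 and 56.4 CPM with GFP only, 26.8, 22.6 and 24 in WT Ngn3 and 11.9, 13.5 and 12.5 in 6S-A Ngn3 cells, so that the 3 groups were ordered without overlap. Against GFP only it fell by 1.14 on the log2 scale (SE 0.18, adjusted p = 0.000796) with WT and by 2.11 (SE 0.19, adjusted p = 3.6e-06) with 6S-A Ngn3. Over the alternative fits, each of which called it, the log2 fold change ranged from -2.56 to -0.96 with WT and from -3.53 to -1.93 with 6S-A Ngn3. Adamts9, a versican protease like Adamts1, stood at 9.77, 11.1 and 17 CPM with GFP only, 11.8, 18.5 and 19.5 in WT Ngn3 and 15.8, 10.5 and 19.1 in 6S-A Ngn3 cells and was not called. The other Adamts genes tested and not called were Adamts3, Adamts5, Adamts6, Adamts10, Adamts13, Adamts15, Adamts16 and Adamts20, with log2 fold changes from -1.33 (Adamts15, 6S-A Ngn3) to 2.09 (Adamts20, WT Ngn3). Without GFP-only replicate 1, Adamts6 was called with WT (1.42, adjusted p = 0.0351) and 6S-A Ngn3 (1.65, adjusted p = 0.0111), and without WT Ngn3 replicate 3, Adamts16 was called with WT Ngn3 (2.51, adjusted p = 0.00818). Calls of genes near the detection limit rested on few reads. Adamts17 was past the threshold with WT Ngn3 (1.51, SE 0.46, adjusted p = 0.0465) and not with 6S-A Ngn3 (1.02, adjusted p = 0.159), while Adamts8 was past it with 6S-A Ngn3 (2.05, SE 0.67, adjusted p = 0.0498) and not with WT Ngn3 (2.06, adjusted p = 0.0667), where DESeq2 (0.0274), the fit with no filter on low counts (0.0275) and that with replicate number as a block (0.0449) called it. Both stayed at or below 2.07 CPM in every 2-day replicate. Each lost its call when any of 7 of the 9 replicates was left out, with adjusted p of 0.0575 to 0.13 for Adamts17 and 0.0528 to 0.168 for Adamts8.

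**Figure D2:**
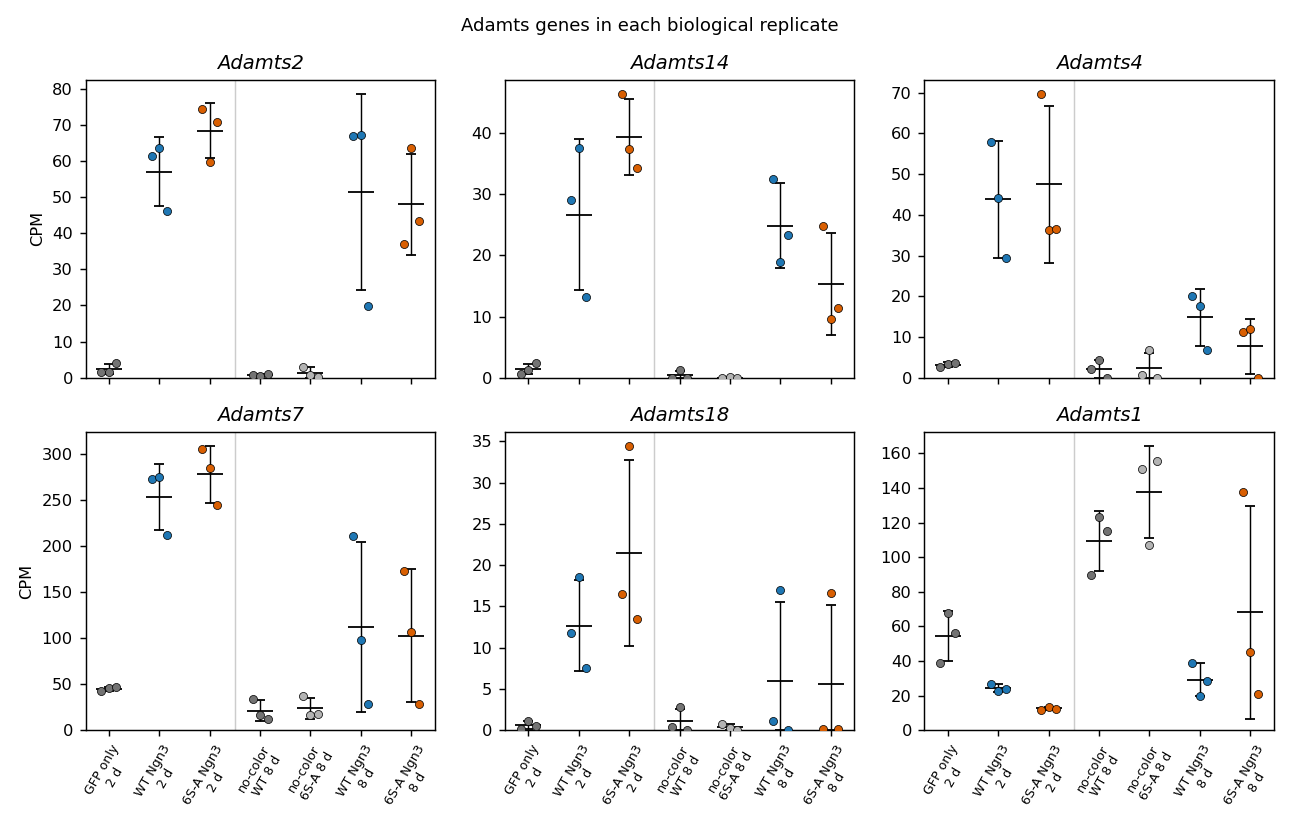
CPM (y axis) of Adamts2, Adamts14, Adamts4, Adamts7, Adamts18 and Adamts1 in the 7 groups (x axis), a dot for each replicate and a bar for the mean with SD (cut at 0 where the SD exceeds the mean), the 2-day groups left of the vertical line and the 8-day groups right of it. For Adamts2 every Ngn3 replicate lies above every control, whereas for Adamts1 the 6S-A Ngn3 replicates at 2 days, 11.9 to 13.5 CPM, are the lowest of all.

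Among the laminin chains, Lama1 and Lamb1 rose and Lama3, Lama4 and Lamb2 fell with either protein. Lama1, an alpha chain of early basement membranes (chromosome 17, 67697259 to 67822647, plus strand), measured 0.805, 0.270 and 0 CPM with GFP only, 34.9, 27.5 and 9.81 in WT Ngn3 and 64, 34.8 and 27.9 in 6S-A Ngn3 cells. The gene had a read in 5 of 18 GFP-only pools, 18 of 18 WT Ngn3 pools and 18 of 18 6S-A Ngn3 pools. The log2 rise was 5.98 (SE 0.82, adjusted p = 0.00188) with WT and 6.78 (SE 0.83, adjusted p = 0.000616) with 6S-A Ngn3, sizes that depend on the few control reads. Lamb1, a broadly used beta chain (chromosome 12, 31265234 to 31329644, plus strand), measured 265, 202 and 213 CPM with GFP only, 429, 395 and 276 in WT Ngn3 and 379, 395 and 313 in 6S-A Ngn3 cells. The smallest Ngn3 value stood just above the largest control, and the log2 rise was 0.70 (SE 0.16, adjusted p = 0.0104) and 0.68 (SE 0.16, adjusted p = 0.00899).

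Lama3, the alpha chain of the laminin of epithelial anchoring complexes, measured 45.7, 32.6 and 47.6 CPM with GFP only, 27.3, 24.1 and 12.5 in WT Ngn3 and 10.5, 14.2 and 14.3 in 6S-A Ngn3 cells. It lay below the controls in every Ngn3 replicate, with log2 fold changes of -0.97 (SE 0.25, adjusted p = 0.0243) and -1.69 (SE 0.26, adjusted p = 0.000449). With replicate number as a block the WT value of Lama3 was -0.98 and was not called (adjusted p = 0.0575). Over the alternative fits the WT value ranged from -2.25 to -0.70. Lamb3 measured 119, 90.0 and 104 CPM with GFP only, 127, 82.9 and 83.7 in WT Ngn3 and 83.8, 70.8 and 66 in 6S-A Ngn3 cells, and was not called (-0.08, adjusted p = 0.857, and -0.51, adjusted p = 0.0576). Lama4, an alpha chain best known from vessel and muscle, went from 56.6, 43.5 and 53 CPM to 28.4, 29.5 and 25.4 with WT and 19.6, 23.1 and 18.5 with 6S-A Ngn3. Its groups did not overlap, and its log2 fold change was -0.87 (SE 0.15, adjusted p = 0.00118) and -1.33 (SE 0.15, adjusted p = 2.29e-05). Lamb2, the beta chain that can take the place of Lamb1, stood at 28.7, 36.8 and 38.2 CPM with GFP only, 23.4, 22.6 and 21.9 in WT Ngn3 and 22.7, 23.2 and 26.4 in 6S-A Ngn3 cells. It fell by 0.60 (SE 0.15, adjusted p = 0.0183) and 0.52 (SE 0.15, adjusted p = 0.0264) on the log2 scale. With the first technical repeat of each replicate alone it was -0.05 (adjusted p = 1.0) with WT and -0.39 (adjusted p = 0.757) with 6S-A Ngn3. With WT Ngn3, leaving out 1 replicate ended the call of Lama3 (GFP-only 1 or 3, adjusted p = 0.0747 and 0.0876), Lamb1 (GFP-only 2 or WT Ngn3 1, 0.0577 and 0.0502) and Lamb2 (GFP-only 2 or 3 or WT Ngn3 2 or 3, 0.054 to 0.0721). With 6S-A Ngn3 it ended that of Lamb2 (GFP-only 2 or 3 or 6S-A Ngn3 1 or 2, 0.0886 to 0.095) and led to a call of Lamb3 (GFP-only 2, WT Ngn3 1 or 3 or 6S-A Ngn3 1, 0.0157 to 0.0499), which DESeq2 (0.0404), the fit with replicate number as a block (0.00140) and that with no filter on low counts (0.00782) also called.

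**Figure D3:**
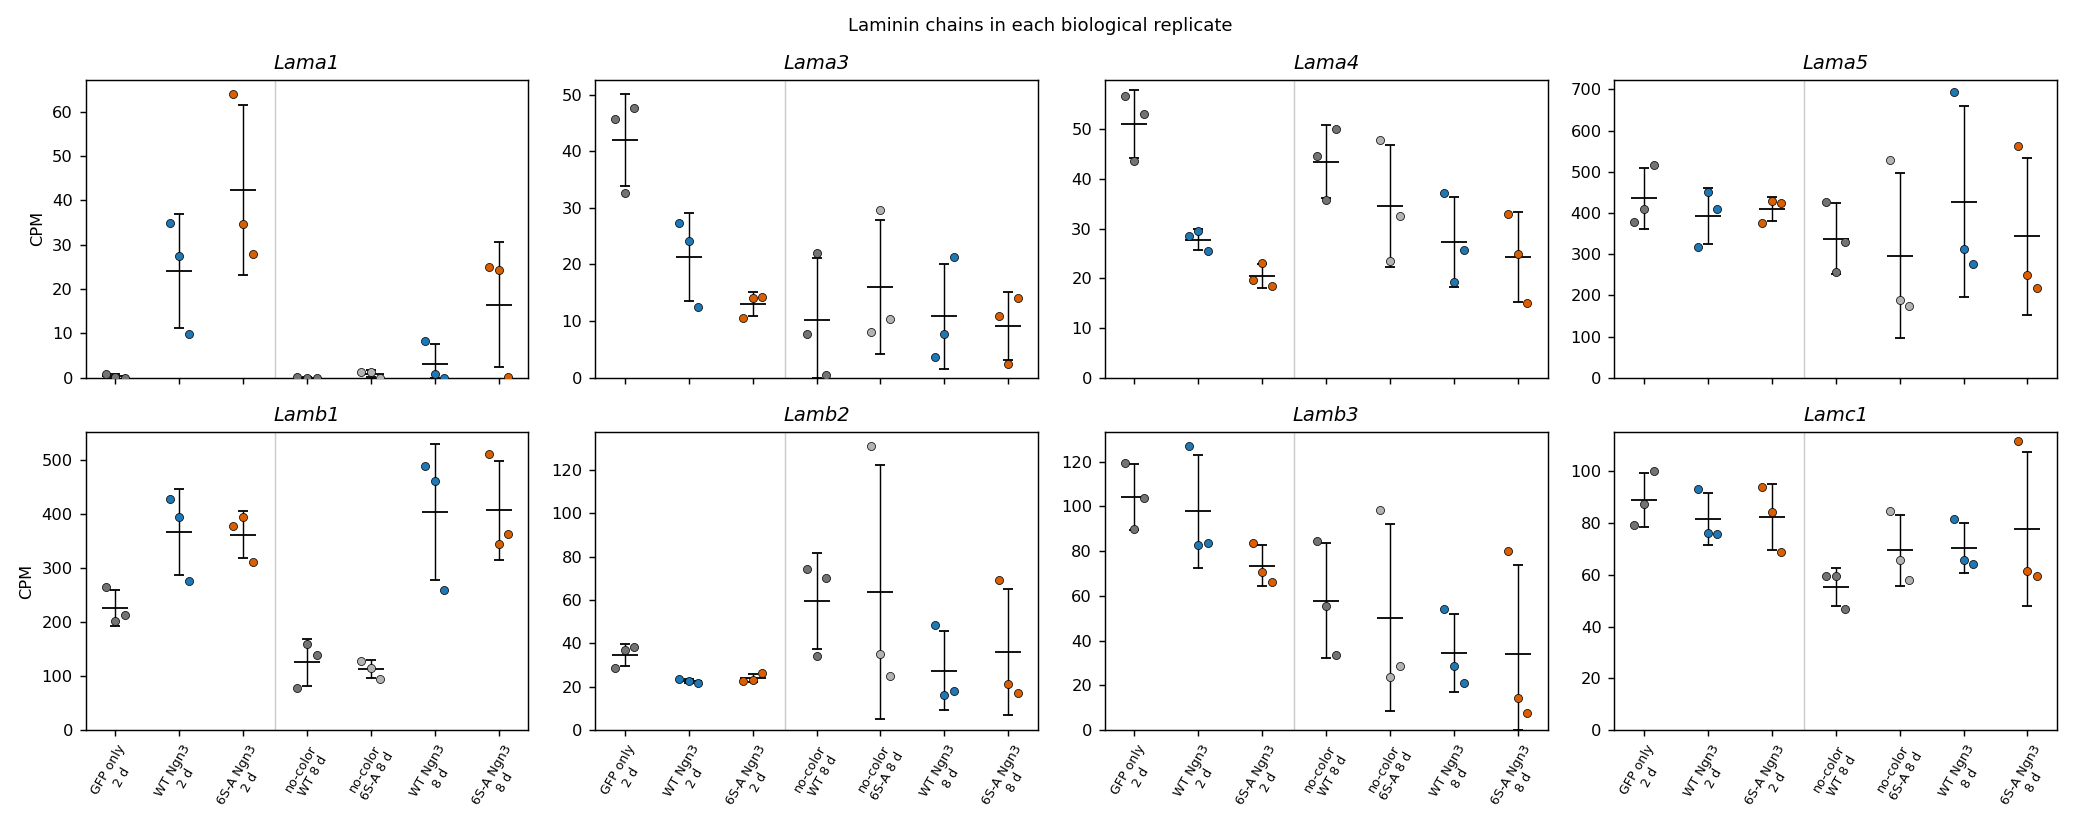
CPM (y axis) of Lama1, Lama3, Lama4, Lama5, Lamb1, Lamb2, Lamb3 and Lamc1 in the 7 groups (x axis), a dot for each replicate and a bar for the mean with SD (cut at 0 where the SD exceeds the mean), with a vertical line between the 2-day and the 8-day groups. Lama1 and Lamb1 stand higher in the Ngn3 groups at 2 days and Lama3 and Lama4 lower, while Lama5 and Lamc1 overlap between the 2-day groups.

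The chain with the highest level per length in the GFP-only cells was Lama5, the main alpha chain of adult epithelial basement membranes, at 38.2 CPM per kb in the mean. Its CPM was 378, 410.1 and 518 with GFP only, 317, 451 and 411 in WT Ngn3 and 377, 429 and 425 in 6S-A Ngn3 cells, so the groups overlapped, and it was not called (-0.14 and -0.09 on the log2 scale). Lamc1, the gamma chain of most laminins, was not called either (-0.11 and -0.11), nor were the sparse chains Lama2 and Lamc3. The balance between Lamb1 and Lamb2 was described by the ratio of CPM per kb within each replicate. Lamb3, left out of it, stood at 15.8 CPM per kb in the mean of GFP only, beside 5.68 for Lamb2. The ratio of Lamb1 to Lamb2 was 5.66, 3.37 and 3.42 with GFP only, 11.2, 10.7 and 7.73 in WT Ngn3 and 10.2, 10.5 and 7.26 in 6S-A Ngn3 cells. The ratio did not overlap between GFP-only and Ngn3 replicates at 2 days, and it overlapped between WT and 6S-A Ngn3. Lamb1 and Lamb2 had been called there in opposite directions, so this separation restates those calls. At 8 days it was 0.639, 2.88 and 1.22 in no-color WT and 0.599, 2.01 and 2.32 in no-color 6S-A replicates, 6.23, 17.7 and 8.75 in WT Ngn3 and 4.53, 10.01 and 12.9 in 6S-A Ngn3 cells. Every Ngn3 replicate lay above every control at 8 days as well, where Lamb1 was called and Lamb2 was not.

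**Figure D4:**
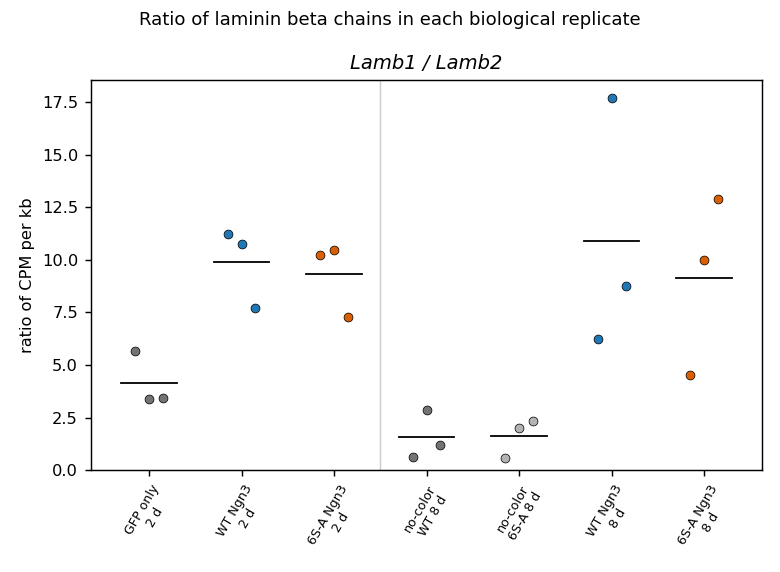
Ratio of CPM per kb (y axis) of Lamb1 to Lamb2 in each replicate (dots) of the 7 groups (x axis), with a line at each group's mean. The ratio averages 4.15 with GFP only, 9.89 in WT Ngn3 and 9.32 in 6S-A Ngn3 cells at 2 days, and 1.58 and 1.64 in the no-color groups, 10.9 in WT Ngn3 and 9.14 in 6S-A Ngn3 cells at 8 days.

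The collagen IV chains and nidogens, which complete the basement membrane, were mostly not called at 2 days. Col4a1 had log2 fold changes of 0.22 (SE 0.18) with WT and 0.30 (SE 0.18) with 6S-A Ngn3, and its partner Col4a2 of -0.01 (SE 0.17) and 0.02 (SE 0.17). Neither was called, although Col4a1 with 6S-A Ngn3 was at 0.55 (adjusted p = 0.0207) without GFP-only replicate 3. Col4a1 was the chain with the highest level per length, 17.2 CPM per kb in the mean of GFP only. Col4a5, a chain of the alternative collagen IV network, stood at 58.8, 51.1 and 72.2 CPM with GFP only, 41.3, 54.4 and 37.2 in WT Ngn3 and 37.8, 42.7 and 28.1 in 6S-A Ngn3 cells. It fell by 0.75 on the log2 scale with 6S-A Ngn3 (SE 0.19, adjusted p = 0.0121, and 0.0601 without GFP-only replicate 3) and was at -0.45 with WT Ngn3 (adjusted p = 0.162). Nid1, which links laminin to collagen IV, measured 30.8, 15.8 and 33.7 CPM with GFP only, 23.2, 24.4 and 30.3 in WT Ngn3 and 39.5, 14.6 and 25.7 in 6S-A Ngn3 cells, with log2 fold changes of -0.04 and -0.01. Col4a3, Col4a4, Col4a6 and Nid2 were not called by edgeR, DESeq2 called Col4a4 with 6S-A Ngn3 at 0.93 (adjusted p = 0.0356), and Nid2 had at most 0.549 CPM in a 2-day replicate.

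Among the integrin alpha subunits, the collagen receptors Itga1 and Itga2, the laminin receptor Itga3 and the fibronectin receptor Itga5 fell, while Itga7 and Itga9 rose. Itga1 measured 14.6, 11.4 and 13.1 CPM with GFP only, 3.77, 0.890 and 2.56 in WT Ngn3 and 2.34, 1.46 and 2.77 in 6S-A Ngn3 cells. Its groups did not overlap with the control, and it fell by 2.41 (SE 0.41, adjusted p = 0.00133) and 2.57 (SE 0.42, adjusted p = 0.000566) on the log2 scale. Itga2 stood at 158, 98.6 and 134 CPM with GFP only, 98.9, 66.1 and 64.8 in WT Ngn3 and 59.7, 44.4 and 43 in 6S-A Ngn3 cells. WT Ngn3 replicate 1 overlapped the controls, and the log2 fold change was -0.76 (SE 0.20, adjusted p = 0.0287) with WT and -1.41 (SE 0.21, adjusted p = 0.000339) with 6S-A Ngn3. Itga3, the most abundant alpha subunit per length (114 CPM per kb in the mean of GFP only, chromosome 11, 95044474 to 95076801, minus strand), measured 753, 504 and 695 CPM with GFP only, 381, 362 and 369 in WT Ngn3 and 309, 314 and 326 in 6S-A Ngn3 cells. All Ngn3 replicates lay below the lowest control, at -0.80 (SE 0.13, adjusted p = 0.00119) and -1.04 (SE 0.14, adjusted p = 8.93e-05). Itga5 measured 50.5, 40.6 and 52.8 CPM with GFP only, 30.7, 34.1 and 26.4 in WT Ngn3 and 22.2, 28 and 28.3 in 6S-A Ngn3 cells and was at -0.65 (SE 0.16, adjusted p = 0.0138) and -0.88 (SE 0.16, adjusted p = 0.00122). Itga6, the laminin receptor subunit that pairs with Itgb4 in hemidesmosomes, was not called (0.03 and -0.13).

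Itga9, a receptor subunit for tenascin and osteopontin (chromosome 9, 118606690 to 118901003, plus strand), was close to absent from the GFP-only cells. It measured 0.110, 0 and 0 CPM with GFP only, 3.25, 2.20 and 5.77 in WT Ngn3 and 3.16, 2.29 and 8.97 in 6S-A Ngn3 cells. The GFP-only replicates held 3 reads in all against 241 and 314, a ratio of CPM of 93.1 (exact interval 31.5 to 455) with WT and 124 (41.9 to 602) with 6S-A Ngn3, intervals that cover counting error only since reads carried no molecular tags. A read was present in 3 of 18 GFP-only pools, 16 of 18 WT Ngn3 pools and 18 of 18 6S-A Ngn3 pools, and both rises passed the test (adjusted p = 0.000324 and 0.000126). Itga7, a laminin receptor subunit best known from muscle, rose from 0.695, 2.89 and 1.85 CPM to 5.67, 8.85 and 10.5 in WT Ngn3 and 12.6, 13.1 and 11.2 in 6S-A Ngn3 cells. Its log2 fold change was 2.21 (SE 0.40, adjusted p = 0.00230) and 2.76 (SE 0.41, adjusted p = 0.000277), and its exons overlap Mettl7b on the opposite strand. Itgav, the alpha subunit of RGD-binding integrins, measured 365, 278 and 446 CPM with GFP only, 626, 586 and 559 in WT Ngn3 and 490.4, 463 and 555 in 6S-A Ngn3 cells. Both groups lay above all controls. Its log2 fold change was 0.71 (SE 0.15, adjusted p = 0.00735) in WT Ngn3 cells, but 0.40 (adjusted p = 0.561) there with the first technical repeat of each replicate alone. In 6S-A Ngn3 cells it was 0.47 (SE 0.15), where its adjusted p of 0.05005 just missed the threshold. Without GFP-only replicate 3 it was 0.66 (adjusted p = 0.00568), and DESeq2 called it (0.0262), as did the fits without WT Ngn3 replicate 3 (0.0481), with replicate number as a block (0.00831) and with no filter on low counts (0.00496).

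Of the beta subunits, Itgb1, the common partner of most laminin and collagen receptors, had the highest level per length of all 66 genes, 217 CPM per kb in the mean of GFP only. Its CPM was 1003, 799.8 and 854 with GFP only, 755, 719 and 540.0 in WT Ngn3 and 684, 634 and 579 in 6S-A Ngn3 cells. It fell with 6S-A Ngn3 (-0.49, SE 0.14, adjusted p = 0.0232) and was at -0.39 with WT Ngn3 (adjusted p = 0.0891, but 0.00531 with replicate number as a block and 0.0265 with no filter on low counts). Itgb4, the hemidesmosome subunit, stood at 199, 140.2 and 175 CPM with GFP only, 148, 145 and 115 in WT Ngn3 and 118, 113 and 105 in 6S-A Ngn3 cells, at -0.32 (adjusted p = 0.178) and -0.61 (SE 0.14, adjusted p = 0.00696) on the log2 scale. Itgb6, a partner of Itgav that activates latent TGF-beta, stood at 133, 97.4 and 111 CPM with GFP only, 120.5, 82.5 and 60.6 in WT Ngn3 and 62.9, 62.8 and 52 in 6S-A Ngn3 cells. It fell with 6S-A Ngn3 (-0.94, SE 0.21, adjusted p = 0.00581), and the WT Ngn3 replicates overlapped the controls (-0.36, adjusted p = 0.339, but -0.67, adjusted p = 0.0245, without WT Ngn3 replicate 1). Itgb5, the vitronectin receptor partner of Itgav, rose from 40.5, 41.2 and 34.2 CPM to 78.3, 78.2 and 44 in WT Ngn3 and 60.6, 71.9 and 56.4 in 6S-A Ngn3 cells (0.80, SE 0.19, adjusted p = 0.0133, and 0.70, SE 0.19, adjusted p = 0.0191). Itgb8, also a partner of Itgav, passed the test with 6S-A Ngn3 at low counts (1.19, SE 0.38, adjusted p = 0.0417). The leukocyte subunits Itgad, Itgae, Itgal, Itgam, Itgb2 and Itgb7 and the platelet pair Itga2b and Itgb3 were at or below 5.10 CPM in every 2-day replicate and were not called. Of these, Itgam was called without GFP-only replicate 3, at 2.85 (adjusted p = 0.0287) with WT and 2.96 (adjusted p = 0.0162) with 6S-A Ngn3, in place of 1.11 and 1.22. Itga4, shared by leukocytes and embryonic tissues, was at 2.45 (adjusted p = 0.170) and 2.03 (adjusted p = 0.223), and Itga10, Itga11 and Itgb2l were not called either. Left-out replicates ended the WT Ngn3 calls of Itga2 (GFP-only 1 or 3 or WT Ngn3 2 or 3, adjusted p = 0.0858 to 0.113), Itga5 (GFP-only 3 or WT Ngn3 3, 0.0571 and 0.0565) and Itgb5 (GFP-only 3 or WT Ngn3 1 or 2, 0.0583 to 0.0638). They also ended the 6S-A Ngn3 calls of Itgb1 (GFP-only 1 or 6S-A Ngn3 2 or 3, 0.0708 to 0.0988), Itgb5 (GFP-only 3 or 6S-A Ngn3 2, 0.0734 and 0.081) and Itgb8 (7 of 9 replicates, 0.0542 to 0.142).

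**Figure D5:**
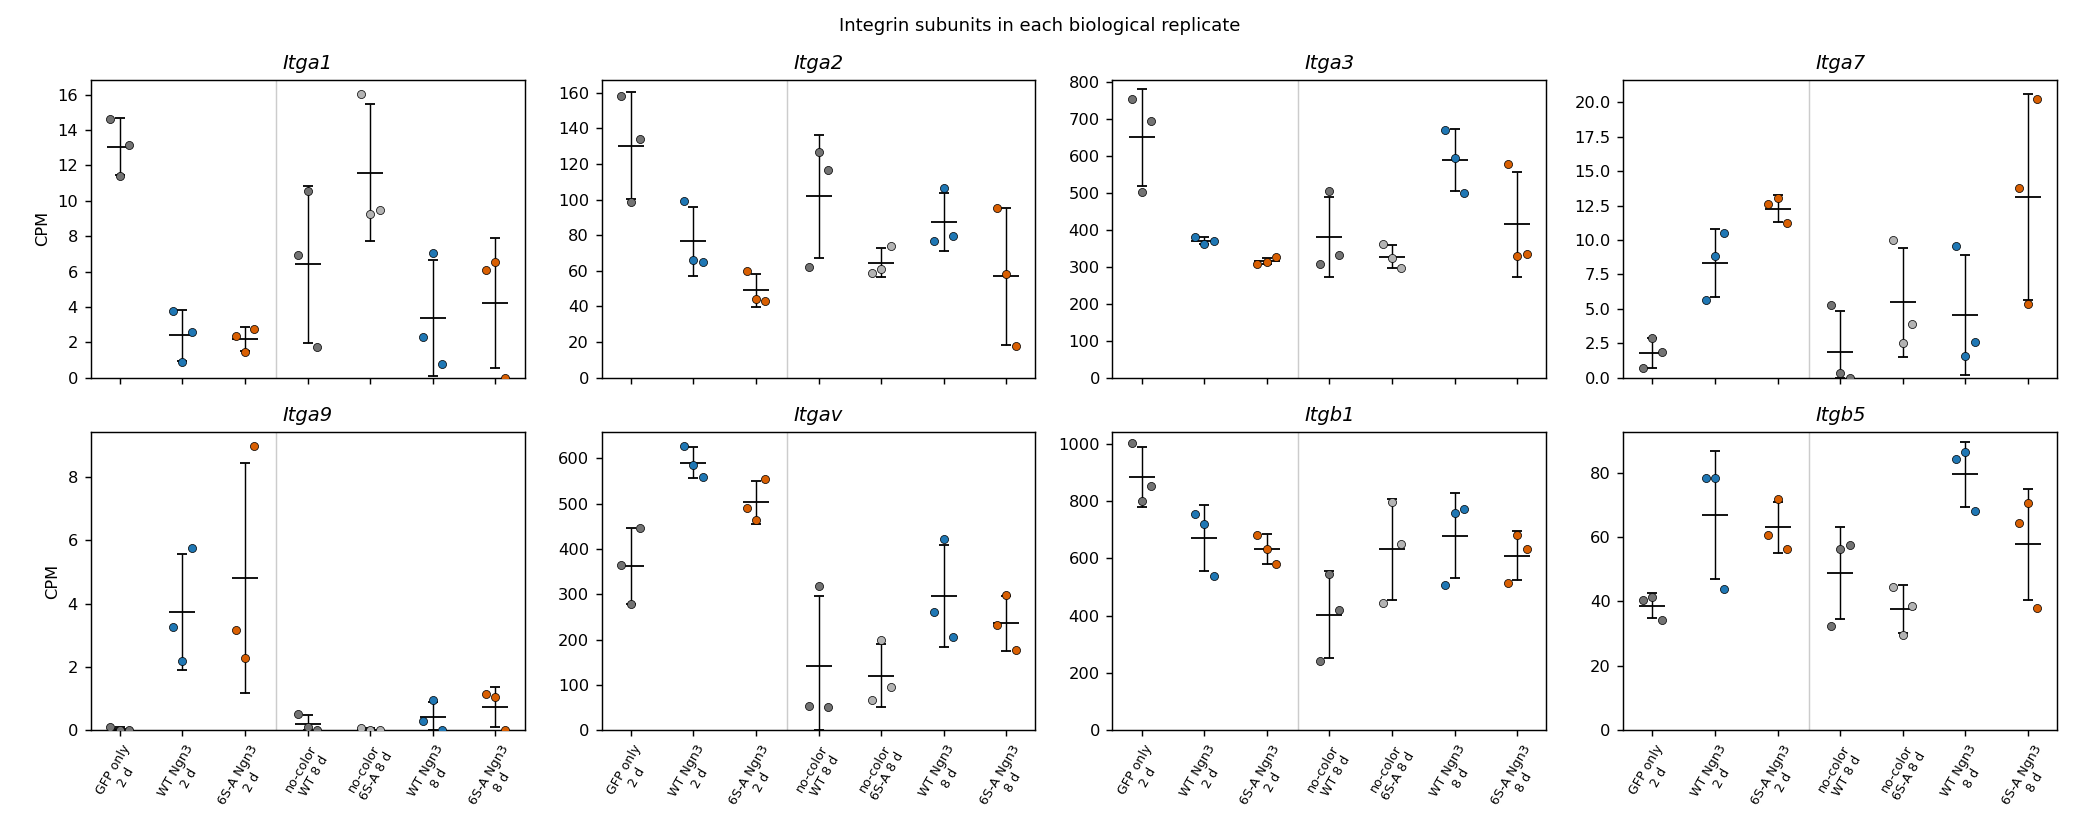
CPM (y axis) of Itga1, Itga2, Itga3, Itga7, Itga9, Itgav, Itgb1 and Itgb5 in the 7 groups (x axis), a dot for each replicate and a bar for the mean with SD (cut at 0 where the SD exceeds the mean), with a vertical line between the 2-day and the 8-day groups. At 2 days Itga1 and Itga3 lie below the GFP-only cells in every Ngn3 replicate, and Itga7, Itga9, Itgav and Itgb5 lie above them.

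WT and 6S-A Ngn3 were then compared directly at 2 days, which is the comparison that the mutation addresses. Of the 61 genes, 0 were called by edgeR, where 0.0126% of all genes were (0.00839% higher and 0.00419% lower), with 6 at an unadjusted p under 0.05 and 1 called by DESeq2, where 0.407% of all genes were. The 6 were Itga2, Itgb6, Lama3, Lama4, Lamb3 and Adamts1, each lower with 6S-A than with WT Ngn3, by 0.65, 0.58, 0.72, 0.46, 0.42 and 0.96 on the log2 scale. These 6 of 61 stand beside 5.79% of all genes at that unadjusted limit. For Adamts1 the difference of -0.96 (SE 0.19, adjusted p = 0.204) was that called by DESeq2 (-0.96, adjusted p = 0.00251). Among genes that rose at 2 days, the difference was 0.25 (SE 0.25) for Adamts2, 0.35 (SE 0.57) for Itga9, 0.75 (SE 0.49) for Adamts18, 0.56 (SE 0.38) for Adamts14 and 0.80 (SE 0.58) for Lama1. With replicate number as a block, where 0.617% of all genes were called, the count was 2, Adamts1 at -0.98 (adjusted p = 0.0212) and Itga2 at -0.64 (adjusted p = 0.0156), and with no filter on low counts, where 0.316% were, it was 1, Adamts1 (adjusted p = 0.000420). A p that misses the threshold does not show that the proteins act alike on a gene.

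At 8 days 55 of the 66 genes could be tested, and Lamb1, Adamts2 and Adamts14 were higher with both proteins. With WT Ngn3, 3 of the 55 were called against the no-color controls, all higher, where 0.914% of all 19696 genes were called, 0.741% higher and 0.173% lower. With 6S-A Ngn3 the same comparison called 4, Lama1 besides these, all higher, where 1.71% were called, 1.37% higher and 0.34% lower. Adamts2, named in the choice for its rise, is among the calls with each protein, so its part in these counts was known beforehand. The comparisons share both no-color groups. The median log2 fold change was 0.51 with WT and 0.33 with 6S-A Ngn3, beside 0.01 and 0.03 over all genes. With replicate number as a block, which at 8 days also takes up the passage, the counts were 9 (8 higher and 1 lower) and 7 of 55, where 2.4% and 3.57% of all genes were called. On passage 2 alone, an alternative chosen after seeing the data, they were 4 and 5 of 54 (0.771% and 1.11% of all genes), and against only the no-color group of the same construct 2 and 3 of 55 (0.249% and 0.584%). The calls lost there were Lamb1 with WT Ngn3 (1.70, adjusted p = 0.0654) and Lama1 with 6S-A Ngn3 (4.16, adjusted p = 0.419).

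Adamts2 measured 0.722, 0.544 and 1.15 CPM in the no-color WT replicates, 3.06, 0.809 and 0.123 in the no-color 6S-A replicates, 66.9, 67.2 and 19.96 in WT Ngn3 and 37, 63.5 and 43.3 in 6S-A Ngn3 cells. Every Ngn3 replicate was above every control, and the log2 fold change was 5.69 (SE 0.62) with WT and 5.57 (SE 0.61) with 6S-A Ngn3. Adamts14 measured 0, 1.20 and 0 CPM in no-color WT and 0, 0.0899 and 0 in no-color 6S-A cells, 32.5, 18.9 and 23.3 in WT Ngn3 and 24.8, 9.59 and 11.4 in 6S-A Ngn3 cells. It was thus at 0 in 4 of the 6 controls, and its rise of 7.47 (SE 0.91, adjusted p = 0.000507) and 6.75 (SE 0.90, adjusted p = 0.000653) depends in size on the prior count. Lamb1 measured 77.6, 159.8 and 139 CPM in no-color WT and 128, 115 and 95.1 in no-color 6S-A cells, 490.3, 462 and 259 in WT Ngn3 and 512, 346 and 364 in 6S-A Ngn3 cells. The Ngn3 replicates did not overlap the controls, at 1.77 (SE 0.29, adjusted p = 0.00535) and 1.77 (SE 0.29, adjusted p = 0.00391), and without WT Ngn3 replicate 1 the WT value was 1.60 (adjusted p = 0.0585). Lama1 stood at 0.131, 0 and 0 CPM in no-color WT and 1.35, 1.35 and 0 in no-color 6S-A cells, 8.34, 0.960 and 0 in WT Ngn3 and 25, 24.2 and 0.154 in 6S-A Ngn3 cells, and its 6S-A replicate 3 overlapped the controls. The log2 fold change was 5.93 (SE 1.42, adjusted p = 0.0468) with 6S-A and 3.59 (adjusted p = 0.346, but 0.0407 with replicate number as a block and 0.00367 with no filter on low counts) with WT Ngn3, and leaving out any of 9 of the 12 replicates ended the 6S-A call (adjusted p of 0.0603 to 0.151).

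Several genes that were called at 2 days did not pass the test at 8 days. Adamts7 measured 34.3, 16.7 and 12.7 CPM in no-color WT and 37.2, 16.5 and 18.1 in no-color 6S-A cells, 211, 97.9 and 28.5 in WT Ngn3 and 173, 106 and 28.9 in 6S-A Ngn3 cells, at 2.34 (SE 0.57, adjusted p = 0.0799) and 2.20 (SE 0.57, adjusted p = 0.0756). DESeq2 called both (adjusted p = 0.00676 and 0.0111), as did the block (0.000963 and 0.000844) and the fit without 6S-A Ngn3 replicate 3 (0.0382 and 0.0238) or WT Ngn3 replicate 3 (0.0154 and 0.0254). Adamts1 stood at 89.9, 123 and 115 CPM in no-color WT and 151, 107 and 155 in no-color 6S-A cells, 38.9, 19.8 and 28.7 in WT Ngn3 and 138, 45.3 and 21.2 in 6S-A Ngn3 cells. It was -2.05 (SE 0.48, adjusted p = 0.0567) with WT Ngn3, called by DESeq2 at 0.00148 and with the block at 0.0140, and -0.84 (adjusted p = 0.492) with 6S-A Ngn3, whose replicate 1 was within the controls. Leaving out 6S-A Ngn3 replicate 1 or 3 led to a call with WT Ngn3 (0.00672 and 0.0106). Without replicate 1 the 6S-A value was -1.89 (adjusted p = 0.0343). Adamts18 was at 1.11, 17 and 0 CPM in WT Ngn3 and 0.181, 16.6 and 0.154 in 6S-A Ngn3 cells, high in replicate 2 of each, and was not called.

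Replicates of one number resembled each other across the 8-day groups. Replicate 1 was the highest of its group for Lama5 in all 4 groups (427, 528, 694 and 563 CPM for no-color WT, no-color 6S-A, WT Ngn3 and 6S-A Ngn3), and likewise for Lamb2, Lamb3, Itga5 and Adamts7. Replicate 2 was the highest for Itgav in all 4 groups (319, 199.5, 422 and 299 CPM). Itgav was not called at 8 days, and without no-color WT replicate 2 it was called, at 1.91 (adjusted p = 0.0204) with WT and 1.57 (adjusted p = 0.0417) with 6S-A Ngn3, in place of 1.18 and 0.84. With replicate number as a block it was also called, at 1.43 (adjusted p = 0.0162) with WT and 1.15 (adjusted p = 0.0485) with 6S-A Ngn3. Between 6S-A and WT Ngn3 at 8 days, 0 of the 55 genes were called by edgeR, where 0.0% of all genes were, with 2 at an unadjusted p under 0.05 (Adamts1 at 1.21 and Adamts8 at -4.00, the latter on few reads), where 2.11% of all genes were, and 0 called by DESeq2. Between the no-color groups 0 were called, where 0.0% were, with 2 at an unadjusted p under 0.05 (Adamts6 and Adamts14), where 8.37% of all genes were, and 0 by DESeq2.

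The change of each effect from 2 to 8 days was tested as the difference of the 2 contrasts in a joint fit of the 63 genes with enough reads. For WT Ngn3, 0 were called by edgeR, where 0.0% of all 24945 genes were, with 9 at an unadjusted p under 0.05, where 5.29% of all genes were, and 1 called by DESeq2, where 0.257% were. For 6S-A Ngn3, 0 were called, where 0.012% were (0.00802% higher and 0.00401% lower), with 10 at an unadjusted p under 0.05, where 5.70% were, and 1 called by DESeq2, where 0.245% were. In both the gene called by DESeq2 was Itga3, which was below the control at 2 days and at 0.75 and 0.23 at 8 days, neither called. Its 8-day CPM was 308, 505 and 331 and 362, 325 and 297 in the controls, 671, 596 and 501 in WT Ngn3 and 579, 329 and 336 in 6S-A Ngn3 cells. The difference was 1.55 (SE 0.32, adjusted p = 0.198) for WT Ngn3, 1.51 (adjusted p = 0.00213) by DESeq2 and 1.52 (adjusted p = 0.0357) with the block. For 6S-A Ngn3 it was 1.27 (SE 0.32, adjusted p = 0.458), and 1.20 (adjusted p = 0.0421) by DESeq2. The controls carry different labels at the 2 times, so a change over time cannot be told apart from a change of control.

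A list of 50 other genes of the same pathway was read in the same fits, with 49 tested at 2 days. The list was chosen by role, but with earlier results of these data known. With WT Ngn3 10 were higher and 8 lower, with 6S-A Ngn3 9 and 14 (median log2 fold change 0.01 and -0.17), where 11.8% and 18.1% of all genes were called in either direction. The counts of the smaller groups below are read against the same shares. Among 11 other ligands and matrix genes tested, 4 were higher and 3 lower with WT and 3 higher and 4 lower with 6S-A Ngn3. Sparc, a matricellular protein that binds collagen, rose by 5.34 in WT Ngn3 cells and 5.78 in 6S-A Ngn3 cells (adjusted p = 0.000371 and 0.000163), and Col18a1, a basement membrane collagen, by 3.13 (adjusted p = 5.83e-07) and 3.50 (adjusted p = 1.39e-07) on the log2 scale. Tnc, a tenascin bound by the receptor that holds Itga9, rose by 3.18 (adjusted p = 0.0243) and 2.76 (adjusted p = 0.0281), whereas Spp1, osteopontin, another of its ligands, was at -0.94 (adjusted p = 9.11e-05) and -1.20 (adjusted p = 6.13e-06). Of 18 enzymes and inhibitors, 4 were higher and 4 lower with WT and 5 higher and 4 lower with 6S-A Ngn3. The gelatinase Mmp2 was higher by 4.46 (adjusted p = 0.000465) in WT and 5.33 (adjusted p = 7.89e-05) in 6S-A Ngn3 cells. The plasminogen activators Plau and Plat and the Plau receptor Plaur fell. Plau was at -1.18 (adjusted p = 0.0273) and -1.58 (adjusted p = 0.00391), Plat at -1.55 (adjusted p = 5.51e-05) and -2.03 (adjusted p = 3.38e-06) and Plaur at -1.89 (adjusted p = 0.00458) and -3.03 (adjusted p = 0.000206).

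Of 13 genes that link integrins to the cytoskeleton, 2 were higher and 0 lower with WT Ngn3, Fermt2 at 0.39 (adjusted p = 0.0398) and Zyx at 0.45 (adjusted p = 0.0338), and 1 higher and 4 lower with 6S-A Ngn3. The 4 were Fermt1, the epithelial kindlin, at -0.64 (adjusted p = 0.00129), Lims1 at -0.44 (adjusted p = 0.00999), Tln1, talin, at -0.42 (adjusted p = 0.0251) and Src at -0.39 (adjusted p = 0.0423), and the higher one was Pxn, paxillin, at 0.71 (adjusted p = 0.0479). Of 7 hemidesmosome and other laminin receptor genes, Bcam, a receptor for Lama5 laminins, fell with WT (-0.89, adjusted p = 0.00402) and 6S-A Ngn3 (-1.27, adjusted p = 0.000171), and Plec, plectin, with 6S-A Ngn3 (-1.05, adjusted p = 0.00902). At 8 days 3 of the list were higher and 0 lower with each protein, where 0.741% and 1.37% of all genes were called higher. Those of the list included Col18a1 (3.13, adjusted p = 0.000131, and 3.58, adjusted p = 3.04e-05) and Lox, a collagen crosslinking oxidase (5.58, adjusted p = 0.0159, and 6.25, adjusted p = 0.00478). Between WT and 6S-A Ngn3 0 of the list were called at 2 days by edgeR.

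Some of the genes lie side by side in the genome. Itga2 and Itga1, 20995 bases apart on chromosome 13, both fell with either protein at 2 days. Of Adamts1 and Adamts5, 53059 bases apart on chromosome 16, Adamts1 fell and Adamts5 was not called (0.49 and 1.78). Col4a1 and Col4a2 are also neighbours, as are Col4a3 and Col4a4, and edgeR called none of these. Of Col4a5 and Col4a6 only Col4a5 was called, lower with 6S-A Ngn3. Of Adamts8 and Adamts15 only Adamts8 was, higher with 6S-A Ngn3. The pairs given here are not all of those that lie side by side.

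Transcripts of other cell types were read from marker lists in every replicate, because several of these genes are also known from connective tissue, vessels or blood. The 8 fibroblast and stellate markers summed to 3.04 to 4.36 CPM with GFP only, 2.61 to 4.32 with WT Ngn3 and 1.42 to 3.44 with 6S-A Ngn3 at 2 days, and to at most 5.18 in any 8-day replicate, with Col3a1 at 0 in every replicate. No Ngn3 replicate exceeded the highest control replicate of its time point in this sum. At 8 days that control was no-color WT replicate 3, the replicate with the fewest reads, where Acta2 alone made up the 5.18 CPM. The 8-day sums reached 0.673 CPM in no-color 6S-A, 3.89 in WT Ngn3 and 3.99 in 6S-A Ngn3 replicates. The 5 endothelial markers summed to 0.964 to 1.32 CPM with GFP only, 2.07 to 6.11 with WT Ngn3 and 3.16 to 10.1 with 6S-A Ngn3. This sum was above every control in all 6 Ngn3 replicates at 2 days. At 8 days it was at most 0.459 CPM in a control, 0 to 1.67 with WT Ngn3 and 0.242 to 4.30 with 6S-A Ngn3. Kdr and Pecam1 made up most of it in the 2-day Ngn3 replicates, and Cdh5 stood at no more than 0.116 CPM in any replicate. The 6 leukocyte markers summed to 9.91 to 12.6, 4.61 to 8.23 and 6.05 to 7.44 CPM in these groups, with Cd3e at 0 in every replicate, and the 3 platelet markers to 3.95 to 21.7, 2.22 to 7.74 and 0.848 to 2.29. Acinar markers, 4 of 5 listed, reached at most 18.4 CPM, with Cpa1 and Ptf1a at 0 in every replicate. The 5 endocrine progenitor markers summed to 0.278 to 1.43 CPM with GFP only, 164 to 839 with WT Ngn3 and 378 to 884 with 6S-A Ngn3. At 8 days they summed to 0.491 to 6.06 CPM in the no-color replicates, 16.8 to 1622 with WT and 55.6 to 1753 with 6S-A Ngn3. The lowest of each Ngn3 group was replicate 3, which was also the lowest of its group for Adamts7 and Lama1. The ductal sum given above was lower in the Ngn3 groups, beside the falls of Itga1, Itga2, Itga3 and Lama3. The part of the fibroblast, endothelial, leukocyte, platelet, ductal and endocrine progenitor transcripts in these results was not tested.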

How the data were processed

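RNA-seq was made from pools of 50 sorted cells by the Smart-seq2 protocol with Nextera XT libraries, which carry no molecular tags and do not keep strand. The authors aligned reads to mm10 with GSNAP, counted them per gene with HTSeq (0.5.3p3) on Ensembl release 81 and deposited raw read counts, with 92 spike-ins listed apart. HTSeq's lines for reads without a feature (14.4% of reads), ambiguous reads (8.06%) and unaligned reads (22.5%) stayed out of library sizes and tests. Ambiguous reads are those that match more than 1 gene. The strand setting of the counting is not given in the sources used here, so how far genes that overlap another were affected was not tested.

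The pools that met limits set after the study's methods (at least 1000000 gene reads, at least 10000 genes and at most 30% spike-in reads) were summed per biological replicate. The WT Ngn3 pool at 8 days that failed, of replicate 2, held 849278 reads. Genes detected in at least 5 pools of a fit were tested in R 4.3.3 with edgeR 4.0.16 (TMM scaling, robust quasi-likelihood test), with p-values adjusted by the Benjamini-Hochberg method over all genes tested at a threshold of 0.05. Separate fits were made of the 2-day and the 8-day groups, and a joint fit of all 7 groups gave the CPM printed and the change over time. At 8 days the control was the mean of both no-color groups. CPM per kb used the summed exon length of each gene on GRCm38. The fits were tested on simulated counts. There, false calls made up a larger share than the threshold allows at both times, doublings and halvings were recovered in part at 2 days and not at 8 days, and larger changes were recovered more often, so a gene not called at 8 days may still differ by such an amount.

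Genes were named by these rules: those past the threshold in a main comparison, the subunits of epithelial laminins, collagen IV and integrins whatever their result, and the highest per length in each family. The gene lists and marker lists, and the 66 genes themselves, were chosen with earlier results of these data known. Alternatives were RLE scaling, DESeq2 1.42.0, other filters on low counts, no library limits, the first technical repeat alone, each construct's own no-color group, replicate number as a block, leaving out each replicate, and passage 2 alone (added after seeing the data). Counts limit precision most at 8 days, where totals per replicate were lowest. A gene that counts among the 66, and among those called, is not reported here by name.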

Additional observations from a re-analysis of the deposited data

How the results depend on the processing

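The counts of genes called against GFP only at 2 days stayed within 1.5 times of 21 and 25 under every alternative listed, at 14 and 17 with the first technical repeat alone and 16 to 21 and 20 to 27 when 1 replicate was left out. With the first technical repeat alone, 5.04% and 6.95% of all genes were called. No called value changed sign under an alternative. Between 6S-A and WT Ngn3 at 2 days the count went from 0 to 1 with DESeq2, 1 with no filter beyond 1 read and 2 with the replicate block, where 0.407%, 0.316% and 0.617% of all genes were called. It was 0 under every left-out replicate. At 8 days with WT Ngn3 it went from 3 to 6 with DESeq2, 11 with no filter beyond 1 read and 9 with the replicate block, where 2.77%, 2.68% and 2.4% of all genes were called. It ranged from 2 to 5 over left-out replicates, 5 being without no-color WT replicate 2, 6S-A Ngn3 replicate 1 or 6S-A Ngn3 replicate 3. With 6S-A Ngn3 it went from 4 to 7 with no filter beyond 1 read and 7 with the replicate block, where 3.86% and 3.57% of all genes were called. Over left-out replicates it went from 3 to 5. For the change of the WT Ngn3 effect it went from 0 to 1 with DESeq2, 2 with no filter beyond 1 read and 1 with the replicate block, where 0.257%, 0.267% and 0.1% of all genes were called. Over left-out replicates it went from 0 to 2, 2 being without no-color WT replicate 2. For the change of the 6S-A Ngn3 effect it was 1 with DESeq2, where 0.245% of all genes were called, and 0 over left-out replicates. Counts between 6S-A and WT Ngn3 and between the no-color groups at 8 days were 0 under every alternative. The cause of these shifts was not tested.

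With the first technical repeat alone, the calls lost at 2 days were Adamts17, Itga5, Itga7, Itgav, Itgb5, Lama4, Lamb1 and Lamb2 with WT Ngn3 and Adamts8, Col4a5, Itga7, Itgb1, Itgb4, Itgb5, Itgb8, Lamb1 and Lamb2 with 6S-A Ngn3, and Adamts16 was called with both. At 8 days with 6S-A Ngn3 it lost Lama1 and called Adamts15. RLE scaling and edgeR's own filter on low counts also lost Lama1 there and called Itgav with 6S-A Ngn3 at 2 days. Further calls at 8 days were Itgb3 by DESeq2 and Itga7 with the replicate block with 6S-A Ngn3, Adamts4 with WT Ngn3 with the block, Adamts4 and Adamts5 with WT Ngn3 with no filter, and Adamts18 with both proteins and Itgal with 6S-A Ngn3 with no filter. With no filter, Adamts17 lost its call with WT Ngn3 at 2 days.

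In the replicate block, same-numbered samples at 2 days had correlated deviations of 0.0436 to 0.184, and every one of 9 samples correlated best with its own number, a hint from the data and not the design, since there the samples share only a number. The block gave 22 and 27 calls there in place of 21 and 25, and put Lama3 with WT Ngn3 at -0.98 (adjusted p = 0.0575). At 8 days the correlations were 0.069 to 0.478, and replicate 3 is also the later passage. Dropping the library limits changed no 2-day value because every 2-day pool had met them. Low depth limits the genes under about 3 reads in the controls, whose fold changes have no stable size.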
